A study of Mus musculus with 6 samples.

Results

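Iron and haem handling genes move dietary iron through the enterocyte, store it, release it to the blood and break down haem. The 10 genes described here, of 55487 measured, were selected on the measured difference between the genotypes compared below, in which Cybrd1, Slc11a2 and Hmox1 stood out. They are Cybrd1, Slc11a2 and Slc46a1 (uptake), Slc40a1 and Heph (export), Tfrc (uptake from blood), Fth1 and Ftl1 (storage), Hmox1 (haem breakdown) and Ireb2 (sensing). Their DTR-to-WT differences are therefore given as a description, with no test.

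The RNA-seq libraries, made from whole small intestine, were 3 of genotype Lgr5-2A-DTR (DTR) and 3 wild-type (WT), from C57BL/6 mice over 8 weeks old. The DTR allele places a diphtheria toxin receptor under control of Lgr5, which marks the stem cells of the crypt, and toxin then removes the cells that carry it. Both genotypes, WT included, were given 20 µg of diphtheria toxin per kg on each of 4 days, and tissue was taken 6 h later than the last of these doses. The comparison asks what losing Lgr5-positive cells does to the tissue, and no mice without toxin were analysed here.

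Dietary non-haem iron is reduced at the brush border, carried into the enterocyte as ferrous iron, held in ferritin or passed out at the basolateral side, where it is oxidised and bound to transferrin. When the cell is short of iron, iron regulatory proteins bind a short hairpin, the iron-responsive element. A hairpin in the 5′ UTR blocks translation of the mRNA, and hairpins in the 3′ UTR of Tfrc protect the mRNA from decay. HIF-2α, the product of Epas1, is also known from mice to switch on Cybrd1, Slc11a2 and Slc40a1 in the duodenum during iron shortage.

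The hairpins are shown because they are what several of the 10 mRNAs share in sequence, which the selection did not use. They were found in GENCODE M21 transcripts (build mm10) as an unpaired C, 5 paired bases with G–T pairs allowed, the loop CAGTGN and the matching arm. The search ran on the transcript strand only, and each hairpin is printed with 6 bases on either side and with its loop in capitals. Fth1, Ftl1 and Slc40a1 had the element in the 5′ UTR, at chr19:9982732-9982760 on the plus strand, chr7:45459779-45459807 on the minus strand and chr1:45925465-45925493 on the minus strand. It lay in 4 of 5 coding transcripts of Fth1, 2 of 3 of Ftl1 and 1 of 4 of Slc40a1.
Fth1: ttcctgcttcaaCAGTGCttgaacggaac
Ftl1: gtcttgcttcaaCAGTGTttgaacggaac
Slc40a1: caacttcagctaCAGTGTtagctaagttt

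Tfrc had 4 elements in its 3′ UTR, between chr16:32631219 and chr16:32631738 on the plus strand, in 1 of its 3 coding transcripts. With 1 unpaired base allowed in the 3′ arm, Slc11a2 had 1 element, at chr15:100395152-100395181 on the minus strand, in the 3′ UTR of 1 of its 7 coding transcripts.
Tfrc element 1: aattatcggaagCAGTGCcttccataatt
Tfrc element 2: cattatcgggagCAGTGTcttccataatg
Tfrc element 3: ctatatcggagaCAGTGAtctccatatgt
Tfrc element 4: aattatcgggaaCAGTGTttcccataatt
Slc11a2: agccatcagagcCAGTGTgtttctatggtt

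Neither form was found in the UTRs of Cybrd1, Hmox1, Heph, Slc46a1 or Ireb2. Over the annotation, the strict form occurred in the 5′ UTR of 31 of 21200 genes (0.146%) and in the 3′ UTR of 144 of 21193 genes (0.679%). The form with an unpaired base occurred in 52 (0.245%) and 279 (1.32%) of them. A match describes letters only, and binding was not measured.

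Reads assigned to genes ranged from 61404574 to 76596766 per library. Lgr5 had 22, 0 and 34 reads in the DTR libraries and 315, 254 and 229 reads in the WT libraries, the direction that the labels give. Xist had 22432 to 24279 reads in the DTR libraries and 16 to 38 in the WT libraries, while the Y-linked Ddx3y, Eif2s3y, Kdm5d and Uty had no reads in any DTR library and at least 1085 in each WT library. Genotype and this sex-linked pattern cannot be told apart. The tissue is labelled whole small intestine, yet the ileal genes Fabp6 and Slc10a2 stayed at or below 0.538 RPKM in all 6 libraries. Other genes on the list of distal markers were higher. Over the 6 libraries Slc51a had 52.1 to 89.1 RPKM, Muc2 63.8 to 80.6 RPKM and Cubn 0.781 to 27.6 RPKM. Pyy, Nts and Gcg lay between 0.155 and 8.01 RPKM. The 8 genes on this list summed to 132 to 172 RPKM in DTR and 159 to 183 RPKM in WT. Slc51a and Muc2 were the largest parts of every sum, so the sums do not measure how much ileum was taken. Pancreas acinar transcripts were abundant, with 9 markers summing to 10380 to 32400 RPKM in DTR and 15046 to 42016 RPKM in WT. Of 12 enterocyte markers, which summed to 21010 to 37384 RPKM in DTR and 23547 to 27749 RPKM in WT, Vil1, Sis and Anpep fell in DTR, by 0.85, 1.25 and 1.66 on the log2 scale (limma adjusted p = 0.0426, 0.0169 and 0.00732). None of the 12 rose by limma, against 9.54% higher and 8.74% lower among all tested genes. By voom 6 were lower and none higher. At an unadjusted p under 0.05, 7 were lower and 1 higher by either fit. The most abundant, Apoa1, had 7578 to 20313 RPKM in DTR and 5257 to 6070 in WT (log2 change 1.08, limma adjusted p = 0.10). Alpi, Apoa4, Mttp and Apob overlapped, with log2 changes of 0.20, 0.12, 0.16 and -0.01. The part of enterocyte markers in the results below was not tested. Nothing in the labels says whether every library came from its own mouse, and the p-values cover only the variation among these libraries, which may be technical.

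Levels are in RPKM, reads scaled by gene length and by library size. The length is a fixed value for each gene, such as 3469 bases for Fth1 and 1340 for Ftl1. It may differ from that of the transcripts present, so orders and ratios between genes are approximate. In DTR, Fth1 had the highest mean of the 10 genes (2059 RPKM), then Slc11a2 (657), Cybrd1 (273), Slc46a1 (203), Ftl1 (195), Hmox1 (89.2), Slc40a1 (88.1), Heph (67.5), Ireb2 (39.5) and Tfrc (22.3). The DTR libraries of neighbours in this order overlapped, except Fth1 above Slc11a2, Heph above Ireb2 and Ireb2 above Tfrc. In WT the order was Fth1 (2193 RPKM), Slc46a1 (246), Ftl1 (221), Slc40a1 (117), Heph (63.3), Slc11a2 (39.5), Ireb2 (34.0), Cybrd1 (24.8), Tfrc (14.97) and Hmox1 (2.36). The neighbours that overlapped in WT were Slc46a1 with Ftl1, Slc11a2 with Ireb2, Ireb2 with Cybrd1, and Cybrd1 with Tfrc. Slc11a2 and Cybrd1 thus stood directly below Fth1 in DTR but in the lower part of the order in WT.

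**Figure D1:**
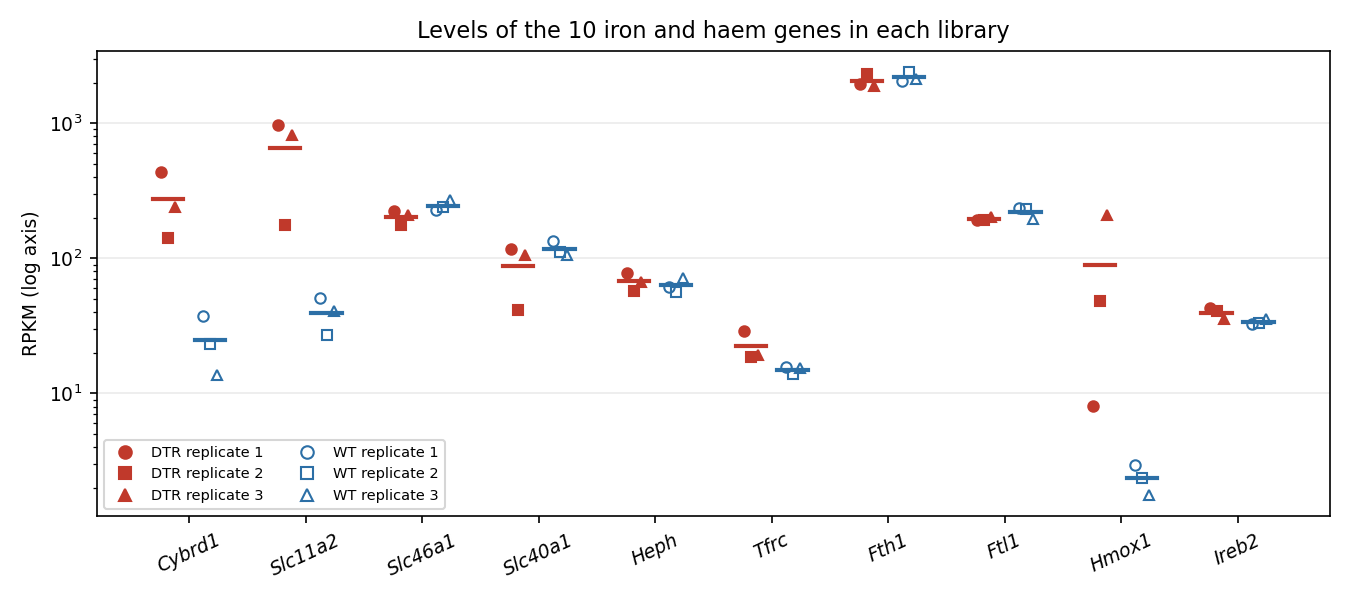
RPKM (log axis) of the 10 genes in the 3 DTR libraries (filled) and the 3 WT libraries (open), 1 symbol shape per replicate number, with a bar at each group's mean. Cybrd1, Slc11a2, Hmox1 and Tfrc have every DTR library above every WT library, Slc46a1 has every DTR library below, and the other 5 genes overlap.

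All 10 genes passed the filter on low values used for the tests, a mean log2 RPKM above -2. For 4 of them (40%) every DTR library was above every WT library, as for 25.1% of all 15563 tested genes, and for 1 of them (10%) every DTR library was below, as for 22.6% of tested genes. The selection used this contrast, so nothing is read from these shares. The log2 change, DTR minus WT, was above 1 for 3 genes, between 0 and 1 for 3 and below 0 for 4, with a median of 0.15. The median of all tested genes was 0.03. In bulk tissue, a change in the number of cells of a type and a change in RNA per cell cannot be told apart.

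Cybrd1 (ENSMUSG00000027015.4, chr2:71117923-71142926, plus strand) encodes the ferric reductase of the duodenal brush border, which makes iron available for uptake. It had 435, 142 and 242 RPKM in DTR replicates 1, 2 and 3, against 37.4, 23.2 and 13.7 RPKM in WT replicates 1, 2 and 3. The lowest DTR library was well above the highest WT library, and the spread within each group was about as wide, 3.07-fold in DTR and 2.72-fold in WT. The means were 273 ± 149 and 24.8 ± 11.9 RPKM (SD, n = 3 each), a ratio of 11.0. The log2 change was 3.43 (SE 0.50), and 62 tested genes had a larger positive change. Leaving out each library in turn gave 3.02 (without DTR replicate 1) to 3.83 (without DTR replicate 2).

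Slc11a2 (ENSMUSG00000023030.16, chr15:100387898-100425072, minus strand) encodes DMT1, the proton-coupled carrier that brings ferrous iron across the apical membrane. Its RPKM was 971, 175 and 826 in DTR replicates 1, 2 and 3, against 51.1, 26.9 and 40.6 in WT replicates 1, 2 and 3. DTR replicate 2 was far below the other 2 DTR libraries and still above all WT libraries. The log2 change was 3.77 (SE 0.66), or 4.55 without DTR replicate 2, and the means were 657 ± 424 and 39.5 ± 12.2 RPKM (SD, n = 3 each). The gene took up 0.636%, 0.105% and 0.531% of all reads in the DTR libraries, against 0.0337%, 0.0168% and 0.0256% in the WT libraries. By level it ranked 52, 338 and 52 among all genes of the DTR libraries, against 984, 1738 and 1289 in the WT libraries.

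Cybrd1 and Slc11a2 are highest in the duodenum, so markers of the proximal small intestine were read beside them. The 10 markers summed to 3859 to 6074 RPKM in DTR and 6714 to 8846 RPKM in WT. Fabp1, also among the enterocyte markers above, was the largest part of every sum. Ctrl, a digestive protease, had 1548, 301 and 572 RPKM in the DTR libraries and 988, 2827 and 860 RPKM in the WT libraries. It ordered the 6 libraries as the pancreas acinar marker Pnlip did, so the sums may hold pancreas RNA. Lct, Cck, Sct and Slc2a2 fell, by 1.16, 1.44, 1.06 and 1.63 on the log2 scale (limma adjusted p = 0.0161, 0.00531, 0.00669 and 0.0435), and none rose (at an unadjusted p under 0.05, 6 were lower, and by voom 5, with none higher by either). Among all tested genes 9.54% rose and 8.74% fell. Gata4 and Pdx1 overlapped between genotypes, with log2 changes of 0.04 (limma adjusted p = 0.915) and -0.29 (limma adjusted p = 0.66). The direction of the 4 called markers was opposite to that of the 2 uptake genes. The part of the 10 markers in the result was not tested.

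Gm5475, annotated on the opposite strand, overlaps 2926 bases of the Slc11a2 locus. It had 4535, 173 and 2077 reads in the DTR libraries and 692, 185 and 269 in the WT libraries, while Slc11a2 had 68475 to 398053 reads in DTR and 10444 to 24035 in WT. Whether the counting used strand is not stated, so reads of the overlap cannot be assigned to either gene with certainty. The hairpin of Slc11a2 lies in 1 of 7 transcripts, and the deposited values do not separate transcripts.

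Slc46a1 (ENSMUSG00000020829.9, chr11:78465697-78472059, plus strand) encodes a carrier first described for haem and best known as the proton-coupled folate transporter. It had 223, 176 and 208 RPKM in the DTR libraries, against 228, 240 and 269 RPKM in the WT libraries. All DTR libraries lay below all WT libraries, DTR replicate 1 and WT replicate 1 being close. The log2 change was -0.28 (SE 0.14), from means of 203 ± 24.4 and 246 ± 20.9 RPKM (SD, n = 3 each). Unlike for Cybrd1 and Slc11a2, its DTR mean was below its WT mean, although its DTR level overlapped with theirs.

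Slc40a1 (ENSMUSG00000025993.10, chr1:45908068-45926523, minus strand) encodes ferroportin, the basolateral iron exporter. Its levels were 117, 41.7 and 106 RPKM in the DTR libraries and 135, 111 and 105 RPKM in the WT libraries. The groups overlapped, and DTR replicate 2 alone stood low, 1.48 below the WT mean on the log2 scale. The log2 change was -0.54 (SE 0.39), and -0.06 without DTR replicate 2. The same library was the lowest DTR library for Cybrd1 and Slc11a2.

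Set against the exporter within each library, the uptake genes differed between genotypes in every library. The ratio of Slc11a2 to Slc40a1 RPKM was 8.32, 4.20 and 7.79 in the DTR libraries, against 0.378, 0.243 and 0.387 in the WT libraries. The ratio of Cybrd1 to Slc40a1 was 3.73, 3.40 and 2.28 in the DTR libraries, against 0.276, 0.209 and 0.131 in the WT libraries. In RPKM, both uptake genes were thus above the exporter in all DTR libraries and below it in all WT libraries, DTR replicate 2 included.

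Heph (ENSMUSG00000031209.14, chrX:96455359-96574485, plus strand) encodes hephaestin, the ferroxidase that works with ferroportin. It had 77.8, 57.3 and 67.4 RPKM in the DTR libraries, against 61.6, 56.1 and 72.1 RPKM in the WT libraries. The groups overlapped, with DTR replicate 1 above and WT replicate 2 below all others. Heph had a log2 change of 0.09 (SE 0.16), and of -0.02 without DTR replicate 1. Heph is X-linked, and the genotypes also differ in the sex-linked pattern described above.

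Tfrc (ENSMUSG00000022797.16, chr16:32608920-32632794, plus strand) encodes the transferrin receptor, which takes up iron from the blood side and is abundant in dividing cells. It had 29.0, 18.5 and 19.3 RPKM in the DTR libraries, against 15.7, 13.9 and 15.4 RPKM in the WT libraries. DTR replicate 1 was the highest, and the other 2 DTR libraries were closer to WT but did not overlap with it. The log2 change was 0.54 (SE 0.19), and 0.34 without DTR replicate 1. Both Tfrc and Slc11a2 carry a hairpin of the 3′ kind, and the ratio of Slc11a2 to Tfrc was 33.5, 9.48 and 42.7 in DTR, against 3.26, 1.94 and 2.64 in WT.

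Fth1 (ENSMUSG00000024661.7, chr19:9980598-9985098, plus strand) encodes the ferritin heavy chain, which oxidises iron as it enters the ferritin shell. Its RPKM was 1962, 2332 and 1883 in the DTR libraries, against 2050, 2402 and 2128 in the WT libraries. The groups overlapped, with a log2 change of -0.09 (SE 0.19) that became 0.23 after quantile normalization. Ftl1 (ENSMUSG00000050708.16, chr7:45457944-45459884, minus strand) encodes the light chain, which aids mineral formation inside the shell. It had 191, 191 and 204 RPKM in the DTR libraries and 236, 231 and 196 RPKM in the WT libraries, again overlapping, with a log2 change of -0.17 (SE 0.13).

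The heavy-to-light ratio of the ferritin mRNAs was 10.6 ± 1.50 in DTR and 9.98 ± 1.13 in WT (SD, n = 3 each), a difference smaller than either spread. Ferritin genes have near-identical processed copies, and reads could be split among them in a way not stated in the sources used here. Of the 5 such copies in the files, Ftl1-ps1 held the most reads, 123 to 132 in DTR and 111 to 146 in WT, against 15774 to 16945 for Ftl1 in DTR and 18956 to 23350 in WT. The 5′ hairpins act on translation, which mRNA levels do not measure.

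Hmox1 (ENSMUSG00000005413.8, chr8:75093621-75100589, plus strand) encodes haem oxygenase-1, the inducible enzyme that opens the haem ring and frees its iron. It had 8.07, 48.6 and 211 RPKM in DTR replicates 1, 2 and 3, against 2.93, 2.38 and 1.78 RPKM in WT replicates 1, 2 and 3. Every DTR library was above every WT library, but the DTR libraries differed 26.1-fold among themselves, while the WT libraries differed 1.65-fold. The log2 change was 4.23 (SE 1.09), from means of 89.2 ± 107 and 2.36 ± 0.578 RPKM (SD, n = 3 each). It was 5.45 without DTR replicate 1 and 3.10 without DTR replicate 3, so the size of the change rests on which DTR libraries are counted. The order of the DTR libraries was not that of Cybrd1 and Slc11a2, for which DTR replicate 1 was the highest and DTR replicate 2 the lowest.

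**Figure D2:**
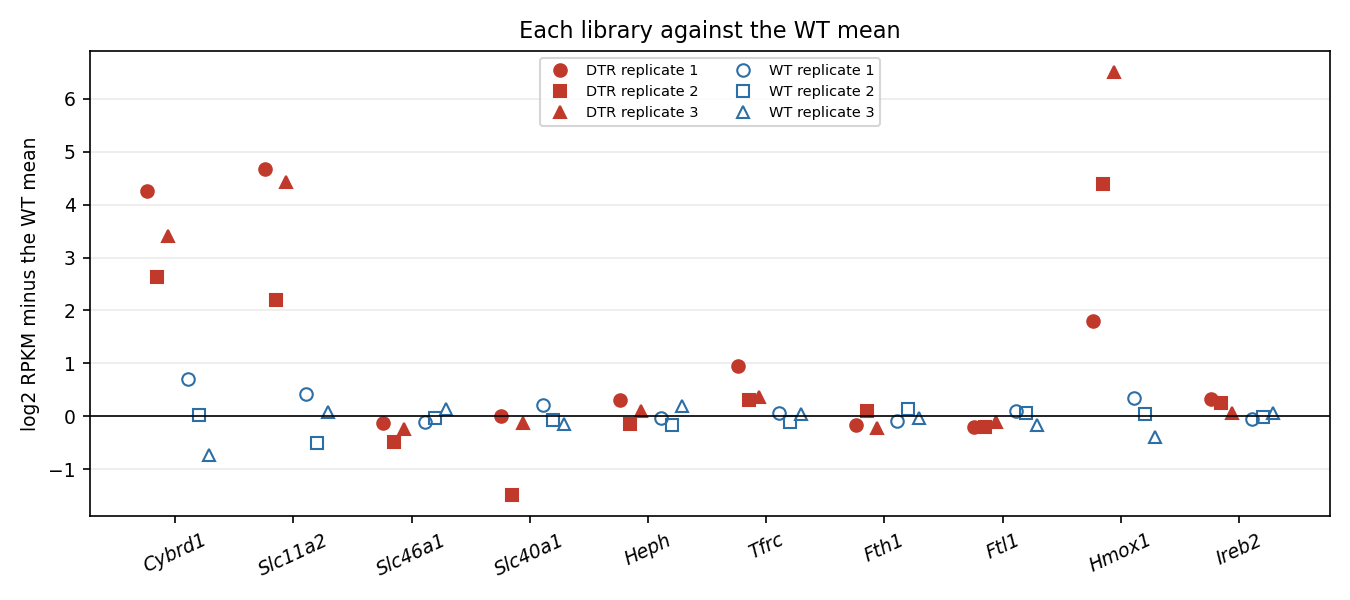
Log2 RPKM of each DTR library (filled) and each WT library (open) minus the mean log2 RPKM of the 3 WT libraries, for the 10 genes, 1 symbol shape per replicate number. DTR replicate 1 lies 4.25 above the line for Cybrd1 and 4.67 for Slc11a2 but 1.80 for Hmox1, DTR replicate 3 lies 6.51 above it for Hmox1, and DTR replicate 2 lies 1.48 below it for Slc40a1.

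Hmox1 is also made by macrophages that take up red cells, and markers of both were checked. The 14 macrophage markers summed to 151 to 184 RPKM in DTR and 146 to 171 RPKM in WT. Of the 11 tested, Adgre1 and Timd4 fell by limma and none rose, against 8.74% lower and 9.54% higher among all tested genes. At an unadjusted p under 0.05, 3 were lower and none higher, and by voom 2 were lower and none higher. C1qa, their most abundant, had a log2 change of 0.04 (SE 0.11). Among the 14, Vsig4, Marco and Spic did not exceed 0.827 RPKM in any library. The 9 erythroid markers found summed to 7.24 to 44.3 RPKM in DTR and 76.0 to 107 RPKM in WT, with Hbb-bs and Hbb-bt lower (log2 change -2.94 and -3.32, adjusted p = 0.033 and 0.0172). Globin copies share near-identical sequence, and the part of blood RNA in these results was not tested.

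Ireb2 (ENSMUSG00000032293.8, chr9:54863789-54912530, plus strand) encodes IRP2, the iron regulatory protein that is degraded when iron is plentiful. It had 42.6, 40.4 and 35.6 RPKM in the DTR libraries, against 32.9, 33.5 and 35.7 RPKM in the WT libraries. The groups overlapped at DTR replicate 3 and WT replicate 3, with a log2 change of 0.21 (SE 0.12). IRP2 is controlled through protein stability, which these data do not measure.

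Genes of like profile were looked for among the tested genes, leaving out those whose symbol is that of a predicted or clone-named model. Likeness was the root mean square difference of log2 RPKM over the 6 libraries, each gene centred on its own mean. Nearest to Cybrd1 were S100a5, a calcium-binding protein (difference 0.368), Slc38a1, a glutamine transporter (0.405), and Piwil2, a PIWI protein known from germ cells (0.553). Nearest to Slc11a2 were S100a5 (0.618), Cybrd1 (0.619) and Slc38a1 (0.717), so that both uptake genes shared S100a5 and Slc38a1. Slc38a1 had 30.8, 11.5 and 14.9 RPKM in the DTR libraries and 2.73, 2.17 and 2.02 RPKM in the WT libraries. S100a5 was low, at 0.903 to 1.71 RPKM in DTR and 0.0611 to 0.188 RPKM in WT.

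None of these was among the 3 genes nearest to Hmox1, which were the secreted proteases Adamts1 (0.545) and Adamts4 (0.753) and the MAP kinase phosphatase Dusp9 (0.828). Adamts1 had 0.828, 5.51 and 7.77 RPKM in DTR replicates 1, 2 and 3, against 0.189, 0.228 and 0.139 RPKM in the WT libraries. It shared with Hmox1 the low value of DTR replicate 1. All these genes were found by their likeness over the same 6 libraries, so their differences are a description too.

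**Figure D3:**
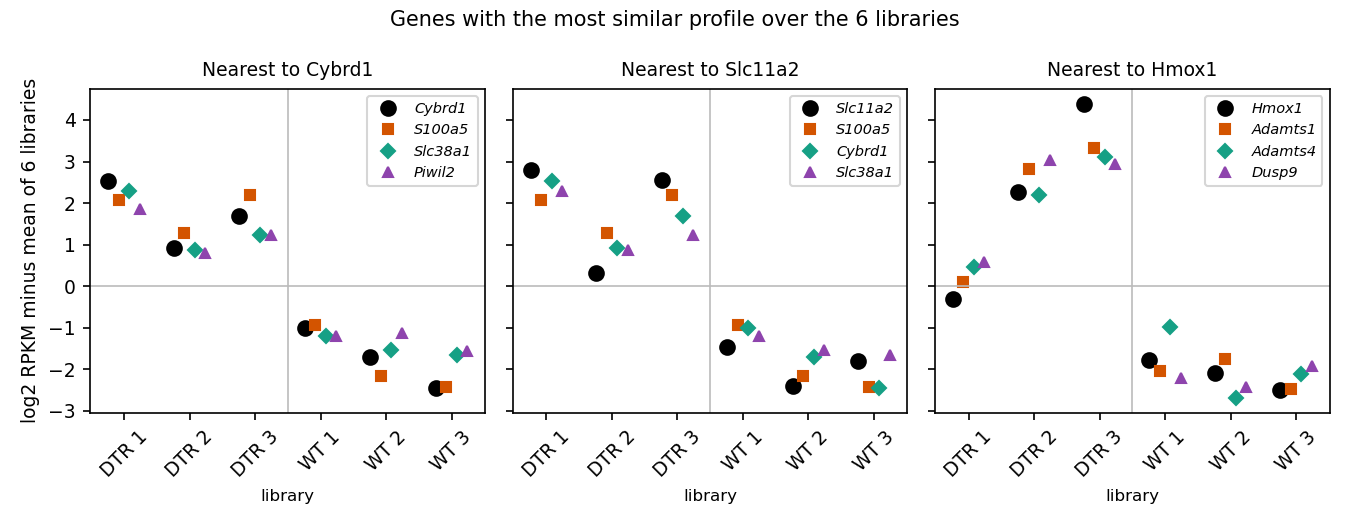
Log2 RPKM minus the gene's mean over the 6 libraries, for Cybrd1, Slc11a2 and Hmox1 (black circles). Each panel also has the 3 tested genes nearest to that gene, predicted and clone-named models left out. DTR libraries are left of the grey line and WT libraries right of it. Cybrd1 and Slc11a2 and their neighbours are lowest in DTR replicate 2 among the DTR libraries, while Hmox1 and its neighbours are lowest there in DTR replicate 1.

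A wider list of 101 other genes of iron and haem biology, in 6 role groups, was tested in the fit across all genes, of which 90 passed the filter. Of the 90, 9 rose (10%) and 7 fell (7.78%) in DTR at a limma adjusted p under 0.05, and 17.8% were called in either direction. Among all 15563 tested genes 9.54% rose, 8.74% fell and 18.3% were called, so the list as a whole was called about as often as genes at large. Its median log2 change was 0.15. The counts depended on the libraries: without DTR replicate 1 they were 13 higher and 16 lower, without DTR replicate 3 they were 5 and 2, and without WT replicates 1, 2 or 3 they were 2, 3 and 4 higher with none lower. At an unadjusted p under 0.05, those last 3 fits had 13, 12 and 10 higher and 12, 10 and 11 lower. Of the 16 calls, that of Egln1 held in every alternative run, and that of Cd163 in every one in which it was tested, since it fails a filter at a mean log2 RPKM above 0.

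**Figure D4:**
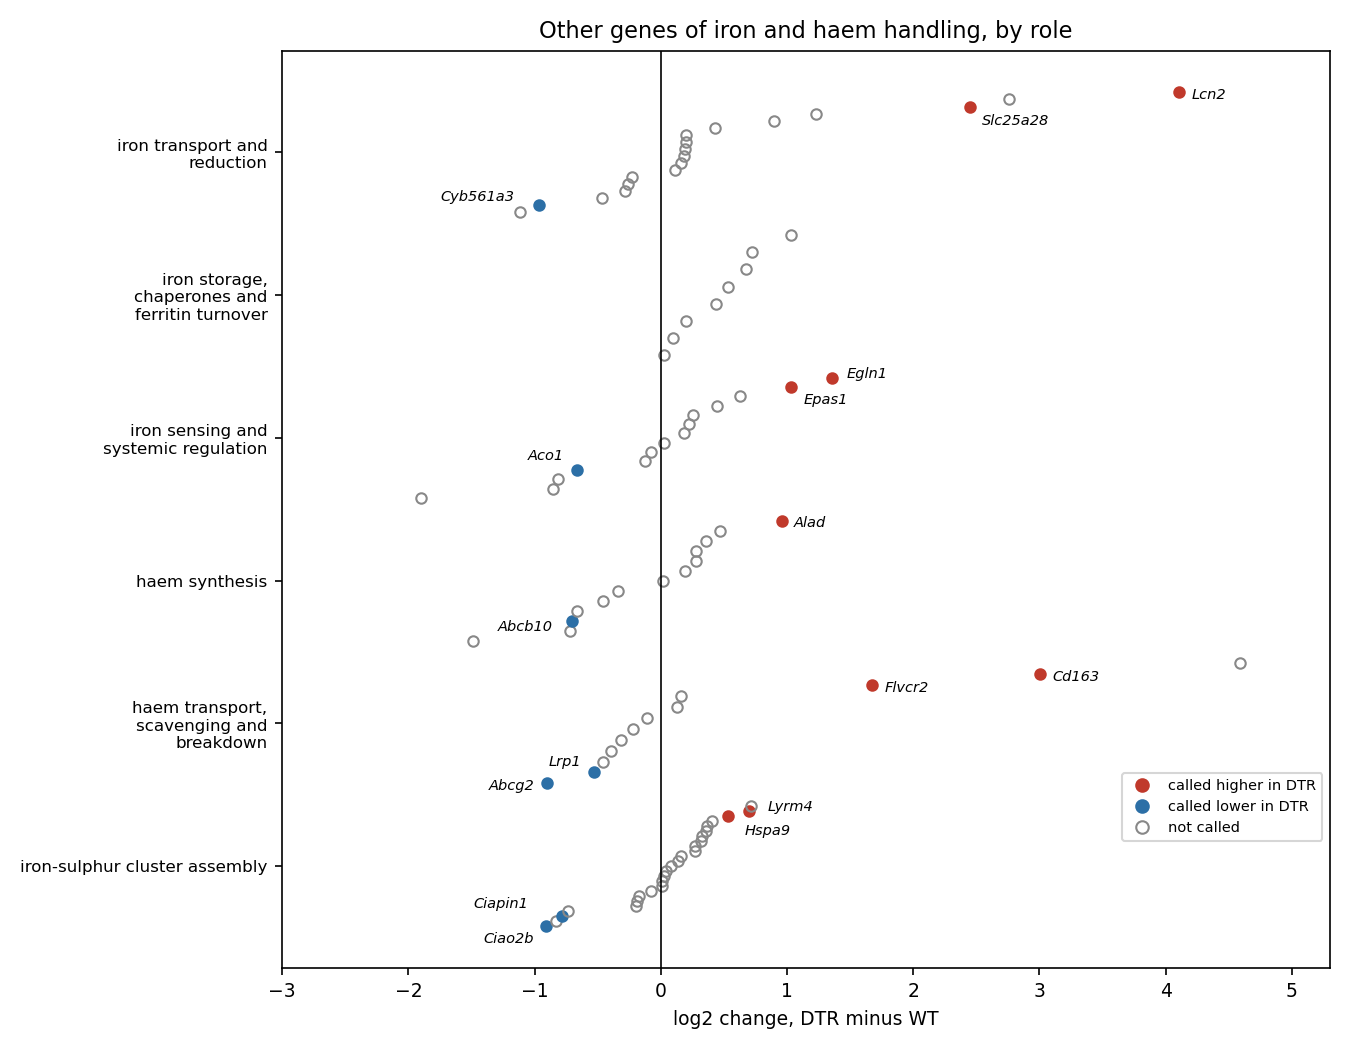
Log2 change, DTR minus WT, of the 90 tested genes of the wider list, in their 6 role groups, with genes called higher in DTR in red, genes called lower in blue and the others open. The called genes are spread over 5 of the groups, with 9 higher and 7 lower, and the group of storage, chaperones and ferritin turnover has none.

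Among 18 tested genes of iron transport and reduction, 2 rose (11.1%) and 1 fell (5.56%), against 9.54% and 8.74% of all tested genes. Slc25a28, mitoferrin-2, which brings iron into mitochondria, had 27.2, 109 and 70.6 RPKM in the DTR libraries and 10.01, 10.6 and 12.1 RPKM in the WT libraries (log2 change 2.45, SE 0.48, adjusted p = 0.025). Its DTR order was again different, with replicate 2 highest. Lcn2, which binds bacterial siderophores, was low and rose, with 1.41, 5.75 and 3.25 RPKM in DTR against 0.134, 0.287 and 0.131 RPKM in WT (log2 change 4.11, SE 0.58, adjusted p = 0.0132). On the log2(RPKM + 1) scale its change was 1.80. Cyb561a3, a lysosomal ferrireductase, fell by 0.96 on the log2 scale (SE 0.24, adjusted p = 0.0425). Slc39a14, the zinc and iron carrier ZIP14, had 100, 36.8 and 53.5 RPKM in DTR and 33.6, 28.5 and 32.2 RPKM in WT and did not pass (log2 change 0.89, adjusted p = 0.112), nor did Cyb561 (0.20, adjusted p = 0.536).

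None of the 8 tested genes of iron storage, chaperones and ferritin turnover passed limma's adjusted threshold, nor by voom, and 2 were higher at an unadjusted p under 0.05. Their log2 changes ran from 0.03 to 1.03, with a median of 0.49. Among all tested genes 9.54% were called higher and 8.74% lower. Ncoa4, the receptor that delivers ferritin to lysosomes, had 177, 101 and 85.9 RPKM in the DTR libraries and 84.7, 67.8 and 65.9 RPKM in the WT libraries (log2 change 0.67, SE 0.28, adjusted p = 0.131). DTR replicate 1 stood above the other 5 libraries. Pcbp1, an iron chaperone for ferritin, was nearly level (0.09, adjusted p = 0.563).

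Of 14 tested sensing and regulatory genes 2 rose (14.3%) and 1 fell (7.14%), against 9.54% and 8.74% of all tested genes. Epas1, HIF-2α, had 53.3, 46.5 and 55.6 RPKM in the DTR libraries and 24.4, 22.9 and 28.6 RPKM in the WT libraries (log2 change 1.04, SE 0.13, adjusted p = 0.0111). Egln1, the prolyl hydroxylase PHD2 that marks HIF-α for degradation and is itself a HIF target, had 18.1, 20.3 and 21.3 RPKM in DTR and 8.60, 7.12 and 7.58 RPKM in WT (log2 change 1.36, SE 0.13, adjusted p = 0.00547). Both were tight within groups, unlike Slc11a2 and Hmox1. Aco1, the cytosolic aconitase that becomes IRP1 when it lacks its iron-sulphur cluster, fell by 0.67 (SE 0.13, adjusted p = 0.0243), with 33.7 to 42.2 RPKM in DTR and 59.6 to 65.3 RPKM in WT. Fbxl5, which targets IRP2 for degradation, had 15.2, 28.6 and 8.85 RPKM in DTR around a WT range of 14.0 to 19.3 RPKM (-0.08, adjusted p = 0.901), and Egln2 had a log2 change of 0.22 (adjusted p = 0.164).

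Epas1 also carries a 5′ UTR hairpin with 1 unpaired base, at chr17:86753768-86753797 on the plus strand, shown because this gene is both a HIF subunit and a known target of iron regulatory proteins.
Epas1: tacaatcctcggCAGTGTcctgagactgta

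Other genes with a match were called in both directions. Of 24 tested genes outside the 10 with the strict form in the 5′ UTR, 2 rose (Nasp and Ppia) and 3 fell (Nudt12, Mfsd14b and Serpina3g), with a median log2 change of 0.14. Of 106 with the strict form in the 3′ UTR, 11 rose and 5 fell, also with a median of 0.14. With 1 unpaired base, 3 rose and 1 fell of 36 with a 5′ match, Epas1 among them, and 23 rose and 13 fell of 205 with a 3′ match, with medians of -0.03 and 0.05. Of all tested genes 9.54% rose and 8.74% fell. A match of this pattern by itself says nothing of whether a protein binds there.

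The genes commonly induced by hypoxia were compared because Epas1 and Egln1 belong to that pathway. Of 17 tested, 7 rose and none fell by limma, against 9.54% higher and 8.74% lower among all tested genes. At an unadjusted p under 0.05, 10 were higher and 2 lower, and by voom 7 were higher and none lower. Their median log2 change was 0.63. Car9, a carbonic anhydrase, had 127, 105 and 106 RPKM in the DTR libraries and 44.8, 43.0 and 36.4 RPKM in the WT libraries (log2 change 1.44, SE 0.14, adjusted p = 0.00553). The glycolytic genes Aldoa and Pgk1 rose by 1.14 (SE 0.18, adjusted p = 0.0167) and 0.76 (SE 0.12, adjusted p = 0.0164). The others of the 7, named after their values were seen, differed in spread. Kdm3a was tight, with 16.3, 14.6 and 12.5 RPKM in DTR and 5.22, 5.21 and 4.76 RPKM in WT. Slc2a1 (4.77, 6.31 and 13.8 RPKM in DTR) and Adm (4.01, 8.03 and 11.7 RPKM) were highest in DTR replicate 3. Ndrg1 had 20.7, 49.6 and 32.4 RPKM in DTR and 5.49, 5.52 and 6.34 RPKM in WT. It was highest in the DTR library that was lowest for Slc11a2.

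Hmox1, Fth1 and Ftl1 are known targets of NRF2, the activator of antioxidant genes, so 14 tested NRF2 targets were set beside them. Of these 1 rose, Gsr, and 4 fell, Gsta4, Abcc2, Srxn1 and Nqo1 (limma; at an unadjusted p under 0.05, 2 were higher and 8 lower, and by voom 2 were higher and 4 lower), against 9.54% higher and 8.74% lower among all tested genes. Their median log2 change was -0.84. Gsta4, a glutathione transferase, had 203, 134 and 156 RPKM in the DTR libraries and 373, 360 and 268 RPKM in the WT libraries (log2 change -1.03, SE 0.21, adjusted p = 0.0273). Abcc2, an efflux pump, and Srxn1, sulphiredoxin, fell by 1.50 (SE 0.28, adjusted p = 0.0219) and 0.86 (SE 0.14, adjusted p = 0.0164). Txnrd1, thioredoxin reductase, had 91.8, 66.4 and 104 RPKM in DTR and 57.5, 51.5 and 53.2 RPKM in WT and just missed the threshold (log2 change 0.67, adjusted p = 0.0503). The list thus held genes of both directions, and a part of NRF2 in the Hmox1 values was not tested.

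Among 13 tested genes of haem synthesis 1 rose and 1 fell (7.69% each), against 9.54% higher and 8.74% lower among all tested genes. Alad, the enzyme that joins aminolevulinate into porphobilinogen, had 46.7, 50.7 and 48.3 RPKM in DTR against 25.8, 24.5 and 24.7 RPKM in WT (log2 change 0.96, SE 0.10, adjusted p = 0.00684). Abcb10, a mitochondrial transporter linked to haem synthesis, fell by 0.71 (SE 0.18, adjusted p = 0.0402). Slc25a39, a mitochondrial carrier, and Tspo, a protein of the outer mitochondrial membrane, did not pass, with log2 changes of 0.28 (adjusted p = 0.103) and 0.36 (adjusted p = 0.0636).

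Of 12 tested genes of haem transport, scavenging and breakdown 2 rose and 2 fell (16.7% each). Among all tested genes 9.54% rose and 8.74% fell. Cd163, the scavenger receptor for haemoglobin bound to haptoglobin, was low and rose, with 0.872, 1.04 and 0.781 RPKM in DTR against 0.126, 0.138 and 0.0773 RPKM in WT (log2 change 3.01, SE 0.35, adjusted p = 0.00838). On the log2(RPKM + 1) scale its change was 0.77. None of the tested macrophage markers rose with it, while Vsig4, Marco and Spic, too low to be tested, each had 2 of 3 DTR libraries above all WT libraries. Flvcr2, a choline transporter once described for haem, rose by 1.67 (SE 0.39, adjusted p = 0.0346), with DTR replicate 1 lowest of its group at 2.23 RPKM, below 5.88 and 5.41 RPKM in the other 2.

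Abcg2, an efflux pump that carries porphyrins, fell by 0.90 (SE 0.15, adjusted p = 0.0167), and Lrp1, the receptor for haem bound to haemopexin, fell by 0.53 (SE 0.13, adjusted p = 0.0359). Flvcr1 (-0.46, adjusted p = 0.176) and Pgrmc1 (-0.39, adjusted p = 0.119) did not pass. Hp, haptoglobin, named after its values were seen, had the largest log2 change of the wider list, 4.59, and did not pass (adjusted p = 0.0802). Hp had 2.63, 78.2 and 3.25 RPKM in the DTR libraries, against 1.54, 0.102 and 0.296 RPKM in the WT libraries. Every DTR library was above every WT library, with DTR replicate 2 far above the rest and the WT values low and widely spread. Haptoglobin is mainly a liver product, and the 10 hepatocyte markers summed to 90.5 to 170 RPKM in DTR and 51.1 to 99.4 RPKM in WT. Cps1 was the largest part of every sum, with 149, 45.3 and 127 RPKM in the DTR libraries and 90.0, 43.1 and 86.2 RPKM in the WT libraries. The lowest DTR sum, 90.5 RPKM, was that of DTR replicate 2, in which Hp was highest and Cps1 was lowest among the DTR libraries. The order of the DTR sums was that of Cps1, so it does not show the level of the other hepatocyte markers. Cyp2e1 moved with Hp, at 0.704, 33.4 and 0.254 RPKM in DTR replicates 1, 2 and 3 against 0.208 to 1.65 RPKM in WT, while Alb stayed at or below 0.167 RPKM in all 6 libraries and Fgb had no reads. Their part in the Hp values was not tested.

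Of 25 tested genes of iron-sulphur cluster assembly 2 rose and 2 fell (8% each), against 9.54% higher and 8.74% lower among all tested genes. Lyrm4, a partner of the cysteine desulphurase, rose by 0.70 (SE 0.15, adjusted p = 0.0286), and Hspa9, the mitochondrial chaperone that hands clusters on, rose by 0.53 (SE 0.14, adjusted p = 0.0425). Ciao2b and Ciapin1, which act in the cytosolic pathway, fell by 0.91 (SE 0.18, adjusted p = 0.0248) and 0.79 (SE 0.19, adjusted p = 0.0379). The scaffold gene Iscu (0.08, adjusted p = 0.577) and Ciao2a (0.04, adjusted p = 0.832) did not pass. With so few calls, at shares near those of all tested genes, no difference between mitochondrial and cytosolic genes is read from them.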

How the data were processed

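The 10 genes and all gene lists were chosen with earlier results of these data known. Whole small intestine was sequenced in 3 DTR and 3 WT libraries, grouped by the labelled genotype. The submitters' processing notes list build mm10 and the tools STAR, featureCounts, Subread, edgeR, FastQC and MultiQC. The sources used here give no tool versions, strand setting or annotation release. The deposited values are log2 RPKM with a small prior count, and the deposited normalization factor of each library is a ratio that rescales its total. Removing the log and a prior count of 0.25 returned whole reads (100% of values, tolerance 1e-06) that add up to the deposited totals of all 6 libraries.

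Genes with a mean log2 RPKM above -2 (15563 of 55487) entered a two-sided limma fit (version 3.58.1, R 4.3.3) with the variance trended on level and Benjamini-Hochberg adjustment at 0.05. The fit was tested on simulated data. Changes are DTR minus WT on the deposited log2 scale, which understates those of low genes. Chi-square tests of reads found no repeated library within a group. WT replicates 1 and 2 share a description and were told apart by title. Positions and transcripts are from GENCODE M21. Gene models were matched by symbol or RefSeq synonym, and Ahsp was not found. Single values of some erythroid markers are not reported here. Named from the wider list were all called genes and, per role group, the 2 uncalled genes with the highest level. Marker and comparison lists were named by the called genes among their 4 highest. Vil1, Sis, Anpep, Apoa1, Alpi, Apoa4, Mttp, Apob, Fabp1, Sct, Cck, Slc2a2, Gata4, Pdx1, Ctrl and Pnlip were named after their values were seen. So were Slc51a, Muc2, Cubn, Pyy, Nts, Gcg, Adgre1, Timd4, Gsr, Nqo1, Txnrd1, Kdm3a, Slc2a1, Adm, Ndrg1, Cps1 and Cyp2e1. The same holds for the hairpin genes outside the lists and the defining markers at low levels. Alternatives were other pseudocounts, filters and scalings, no trend, a replicate block, leaving out each library and limma's voom on the recovered reads.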

Additional observations from a re-analysis of the deposited data

How the results depend on the processing

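In all, 2845 genes were called. The count stayed within 1.5 times of this for both pseudocounts, both other filters, both scalings, no trend and voom (chosen after seeing the data, 3367). It was 1161 with the replicate block and 152 to 5605 when each library was left out. Wider-list genes called higher, 9 in the fit above, numbered 2 to 13 when each library was left out, and those called lower, 7 above, numbered 0 to 16, 4 with no filter and 1 with the replicate block. Fits that leave out a library assume that the remaining 2 of its group vary like the others. The labels do not say whether replicate numbers pair the libraries. Same-numbered libraries' deviations from their group means correlated by -0.011, -0.0024 and 0.165, the last being the highest of any DTR and WT pair. With 3 libraries per group these values cannot settle whether libraries are paired. Of the 16 wider-list calls, 7 held in every alternative that used all 6 libraries and tested them, and 2 of these, Lcn2 and Cd163, were not tested with the filter at 0. The sign of small changes turned on leaving out a library for Heph (-0.019 to 0.20), Cyb561 (-0.0077 to 0.44), Fbxl5 (-0.51 to 0.33) and Ciao2a (-0.027 to 0.096), and the cause was not tested. Fth1 was at 0.23 after quantile normalization. The planned edgeR and DESeq2 fits were not run, and voom on the recovered reads was run in their place.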
